A study of Mus musculus with 60 samples.

Results

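The genes described here are 10 members of the Notch signalling pathway, chosen by name: the 4 receptors *Notch1*, *Notch2*, *Notch3* and *Notch4*, the 3 ligands *Dll1*, *Jag1* and *Jag2*, and the 3 target genes *Hes1*, *Hes5* and *Hey1*. All 10 were found among the 46480 genes of the deposited count tables, and all 10 had enough counts to be tested. RNA-Seq was performed on dorsal and ventral dentate gyrus (DG) of male C57BL6J mice, and each region was taken from mice of 2 housings, SH and EE, which gave 4 groups. SH is standard housing in small cages, and EE is an enriched environment, a larger cage with more mice, running wheels and toys that were changed every week. Animals in all groups entered their housing at weaning on day 22, stayed in it for 8 weeks and were taken at an age of 80 days. The labels give no transgene or drug for any group, so that the groups differed in region and housing. By the study's methods, dorsal tissue was punched from coronal slices and ventral tissue from horizontal slices. Region and plane of slicing therefore cannot be told apart.

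Each library pooled punches of frozen tissue from several mice, so that a library is a pool and not an animal. By the study's figure legend, dorsal and ventral samples came from the same mice. Libraries of the same housing and replicate number were taken as a pool. Of 20 deposited RNA-Seq libraries, 18 from 9 pools were used (4 SH and 5 EE). SH replicate 3 was left out in both regions because its *Xist* counts were 789 in dorsal and 308 in ventral DG, against at most 16 in any other library of these male mice, and because the study's own analysis also excluded an SH sample for *Xist*. The number of fragments counted on genes was 22919364 to 28301861 per library (median 25816352). Of the 8 granule neuron markers, *Prox1*, *C1ql2*, *Calb1*, *Dsp*, *Tdo2* and *Lct* were detected in every library. The summed expression of all 8 was 1423 to 1645 CPM (counts scaled to a common library total) in dorsal libraries and 670 to 1003 in ventral ones. The punches also held other cells: the summed CPM of 12 choroid plexus markers was 25.7 to 216 in dorsal and 399 to 1462 in ventral libraries. No listed marker of any of 13 cell types was at 0 in all libraries of a group.

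Notch receptors are transmembrane proteins that are cut when they bind a Delta or Jagged ligand on a neighbouring cell. The released intracellular domain enters the nucleus, joins the DNA-binding protein RBPJ and a Mastermind co-activator, and switches on target genes such as the Hes and Hey transcriptional repressors. In the adult DG the pathway is known for keeping neural stem cells undifferentiated, and it also acts in blood vessels and in astrocytes.

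The members lie on 6 mouse chromosomes (build mm10, gene bounds from Gencode). Among the receptors, *Notch1* is at chr2:26457903-26516663 on the minus strand, *Notch2* at chr3:98013527-98150361 on the plus strand, *Notch3* at chr17:32120820-32166852 on the minus strand and *Notch4* at chr17:34564268-34588503 on the plus strand. The ligand genes are on the minus strand, *Dll1* at chr17:15367354-15376872, *Jag1* at chr2:137081456-137116644 and *Jag2* at chr12:112907819-112929776. Among the targets, *Hes1* is at chr16:30064384-30067796 and *Hes5* at chr4:154960923-154962371, both on the plus strand, and *Hey1* is at chr3:8663359-8667256 on the minus strand. *Hes5* overlaps a transcript of the other strand, *Gm20421*, which had 2 to 12 counts, and *Dll1* overlaps *A930024N18Rik*, which had 16 to 55. The libraries kept strand and the counts used here are of each gene's own strand. Counted without strand, *Hes5* kept 48.1% and *Dll1* 77.1% of these counts, since fragments that fit both genes are then dropped.

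The 250 bases before the transcription start are shown for *Hes5* and *Dll1*, a target and a ligand that differed between the regions in opposite directions. They were read from RefSeq promoters on GRCm38.p6, which were matched for 8 of the 10 members, all but *Hes1* and *Hey1*. The *Hes5* window is chr4:154960673-154960922 on the plus strand, and the *Dll1* window, the one of its RefSeq windows that is nearest to the Gencode start, is chr17:15376933-15377182 on the minus strand. Capitals mark the core letters of the RBPJ motif, GTGGGAA on the printed strand or TTCCCAC where the motif is on the other strand.
Hes5: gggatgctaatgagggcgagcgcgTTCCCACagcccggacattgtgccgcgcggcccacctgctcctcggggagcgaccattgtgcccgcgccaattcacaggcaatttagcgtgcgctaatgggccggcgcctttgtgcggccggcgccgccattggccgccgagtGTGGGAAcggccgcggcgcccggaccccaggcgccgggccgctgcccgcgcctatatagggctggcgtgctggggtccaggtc
Dll1: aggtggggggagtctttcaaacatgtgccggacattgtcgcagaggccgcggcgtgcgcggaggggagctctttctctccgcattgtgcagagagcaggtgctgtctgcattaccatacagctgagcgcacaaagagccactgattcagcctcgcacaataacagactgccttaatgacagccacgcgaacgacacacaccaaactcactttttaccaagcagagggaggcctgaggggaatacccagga

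The *Hes5* window held the RBPJ core 2 times, once on each strand, with the first base of the match 226 and 83 bases before the start. The letters were not in the windows of the other 7 members. They occurred in 5.42% of 32851 RefSeq windows of this length. The E-box CACGTG was in no member's window (6.02% of all windows), and the N-box CACNAG, a site that Hes proteins are known to bind, was in those of *Notch1*, *Notch2* and *Notch3* (36.7% of all windows). Both strands were searched, and no member's window held more than 1 kind of these motifs, so none overlapped. These are matches of letters and say nothing of binding in these samples.

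Expression between genes was compared as CPM per kb of effective transcript length. *Hey1* had the highest level over the 18 libraries, 22.7 ± 1.96 (SD), and *Hes5* followed with 10.8 ± 3.15, *Hes1* with 7.61 ± 2.73, *Notch2* with 7.26 ± 0.564 and *Notch1* with 5.96 ± 0.606 CPM per kb. The ligands were lower, at 5.27 ± 0.236 CPM per kb for *Jag2*, 3.39 ± 0.489 for *Jag1* and 2.23 ± 0.380 for *Dll1*. *Notch4* had 1.35 ± 0.124 and *Notch3* 1.19 ± 0.138 CPM per kb, so that the highest mean level was 19.1 times the lowest. The ranges of neighbours in this order overlapped, except between *Hey1* and *Hes5*, *Jag2* and *Jag1*, and *Dll1* and *Notch4*. The order differed between groups: *Hes1* ranked 6 of 10 in both dorsal groups and 3 of 10 in both ventral groups, and in dorsal EE *Notch2* ranked 2 and *Hes5* ranked 3. In the deposited TPM the order was the same but for *Notch2*, which stood above *Hes1*.

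**Figure D1:**
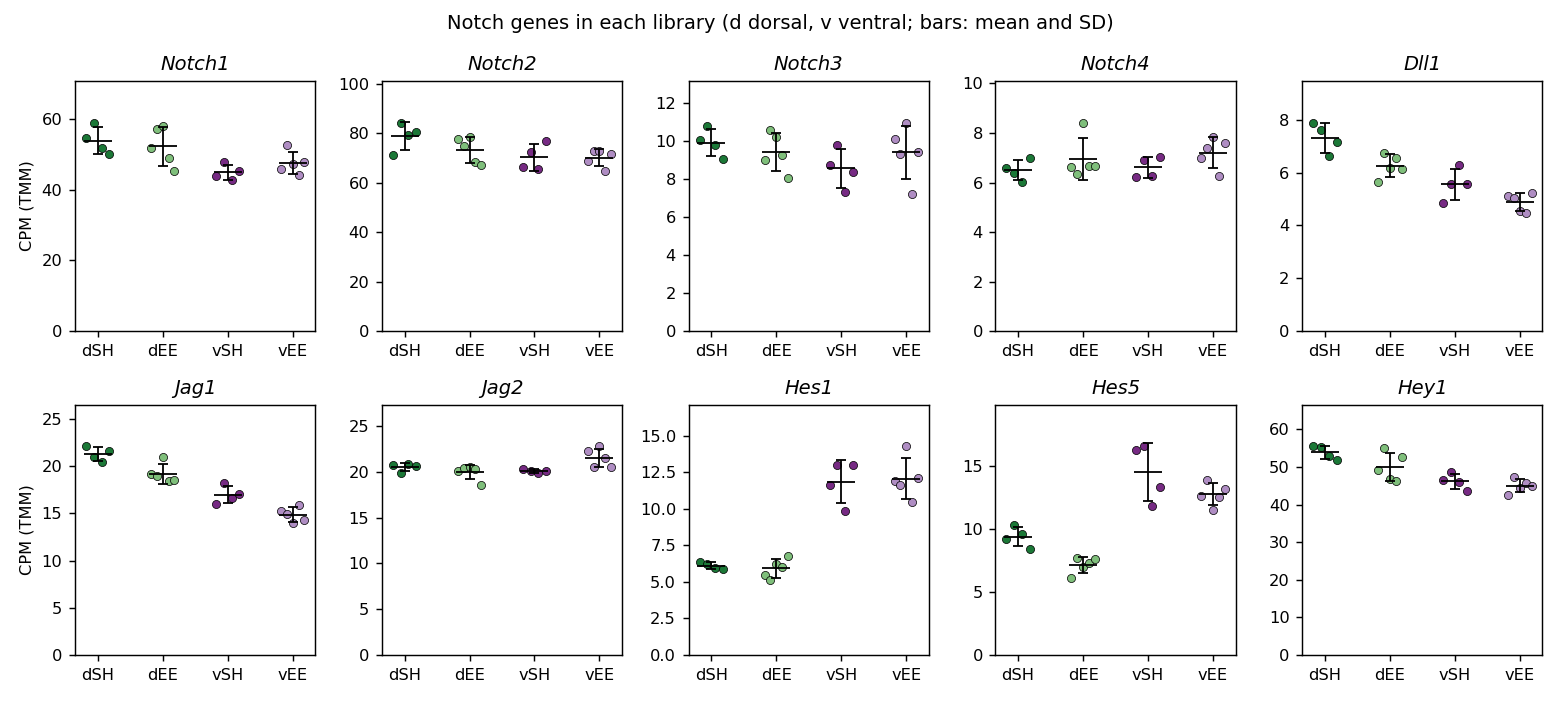
Expression of the 10 Notch genes in CPM after TMM normalization (linear axes from 0), 1 point per library, in dorsal (d) and ventral (v) DG of SH and EE mice; the bars are the mean and SD of 4 SH or 5 EE libraries. *Hes1* and *Hes5* were lower in every dorsal library than in any ventral one, *Jag1* was higher in every dorsal library, and *Hes5* was lower in each dorsal EE library than in each dorsal SH library.

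The first comparison was between dorsal and ventral DG. *Hes1* and *Hes5*, repressors of neuronal differentiation and the best known targets of Notch in neural stem cells, were lower in dorsal than in ventral DG, and the ligands *Dll1* and *Jag1*, the receptors *Notch1* and *Notch2* and the target *Hey1* were higher. Dorsal expression was 0.503 times the ventral expression for *Hes1* and 0.602 times for *Hes5*, whereas *Dll1* was 30.0% and *Jag1* 27.2% higher in dorsal DG. *Notch1*, *Hey1* and *Notch2* differed by 14.8%, 13.8% and 8.32%. *Notch3*, *Notch4* and *Jag2* did not pass the test. Fold changes are the mean of the differences within SH and within EE, tested with the quasi-likelihood test of edgeR over 17040 genes, and a gene passed at a Benjamini-Hochberg adjusted p under 0.05. Under this rule 7 of the 10 genes passed (5 higher and 2 lower in dorsal DG), where 58.4% of all tested genes passed (29% higher and 29.3% lower). With a difference of over 20% besides, 4 of the 10 passed, against 32.7% of all tested genes. The members' median absolute log2 fold change was 0.19, and that of all tested genes was also 0.19. As a group the 10 genes thus passed about as often as other genes, and the values of single members are given below.

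*Hes1* had 6.38, 6.21, 5.94 and 5.85 CPM in the dorsal SH libraries (replicates 1, 2, 4 and 5) and 5.45, 5.14, 6.22, 6.04 and 6.78 in the dorsal EE libraries (replicates 1 to 5). In ventral DG it had 11.6, 13.0, 9.85 and 13.0 CPM in SH and 11.9, 11.6, 14.3, 10.5 and 12.1 in EE. Every ventral library was thus above every dorsal one, and the ventral library of a pool was 1.66 to 2.29 times the dorsal one in 9 of 9 pools. On the log2 scale the fold change (dorsal over ventral) was -0.99 with an SE of 0.069 (edgeR adjusted p = 4.62e-11), with -0.96 in SH and -1.02 in EE. *Hes1* had 124 to 194 counts in dorsal and 243 to 364 in ventral libraries. Of 12201 genes with TPM over 1 in at least 3 libraries, 1.81% had a difference between regions as large as that of *Hes1*. Of all tested genes, 4.99% did.

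*Hes5* had 9.22, 10.3, 9.61 and 8.41 CPM in dorsal SH and 6.11, 7.66, 6.99, 7.30 and 7.59 in dorsal EE. In ventral DG it had 16.2, 16.5, 11.8 and 13.3 CPM in SH and 12.6, 13.9, 11.5, 12.5 and 13.2 in EE. *Hes5*, which carries the RBPJ cores shown above, was also lower in every dorsal library than in any ventral one. Its log2 fold change was -0.73 with an SE of 0.067 (edgeR adjusted p = 3.99e-09), -0.63 in SH and -0.83 in EE, and the ventral library was 1.23 to 2.06 times the dorsal one of its pool in 9 of 9 pools. A difference as large as that of *Hes5* was found in 3.82% of the 12201 genes and in 8.92% of all tested genes. For the other members that passed, the share of the 12201 genes was 15.5% (*Dll1*), 18.3% (*Jag1*), 41.4% (*Notch1*), 44.4% (*Hey1*) and 63.6% (*Notch2*).

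*Hey1*, which encodes a repressor related to the Hes proteins and is a Notch target in blood vessels and brain, was the target with the opposite direction. Its expression was 55.5, 55.4, 52.9 and 51.9 CPM in dorsal SH and 49.3, 55.0, 46.7, 46.3 and 52.6 in dorsal EE, against 46.6, 48.6, 46.1 and 43.7 in ventral SH and 42.6, 47.4, 44.4, 45.7 and 44.9 in ventral EE. The dorsal library was the higher one in 9 of 9 pools, by 1.01 to 1.19 times, while the ranges of dorsal and ventral libraries overlapped. Its log2 fold change was 0.19 with an SE of 0.037 (edgeR adjusted p = 0.000144).

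Markers of other cells differed between the regions too. Of 10 astrocyte markers, 7 were lower in dorsal DG, none was higher and 3 did not pass. Their summed expression was 7142 to 8986 CPM in dorsal and 8150 to 11308 CPM in ventral libraries. The median log2 fold change of the 10 was -0.26, and 1 of them had a value above 0. *S100b* and *Aldoc* had log2 fold changes of -0.60 and -0.48. Mean *Aqp4* was 287 CPM in dorsal SH and 284 in dorsal EE, against 276 and 285 in ventral SH and EE. Of 7 markers of radial glia-like stem cells, 3 were lower (*Sox2*, *Hopx* and *Thrsp*) and 2 higher in dorsal DG, among them *Prom1*. All 12 choroid plexus markers were lower in dorsal DG, with a median log2 fold change of -3.32. All 8 granule neuron markers and all 6 markers of immature neurons were higher in dorsal DG, with median log2 fold changes of 0.88 and 0.66, and 3 of 5 hilar mossy cell markers and 4 of 7 meningeal markers were lower. Of these markers, *Lct*, *Dcx* and *Neurod1* are named by the paper as enriched in dorsal DG, so their direction was known beforehand. The paper also names *Sox2* and the member *Hes5*, both as markers of radial glia-like stem cells, as enriched in ventral DG. The directions of *Sox2* and *Hes5* were therefore known beforehand too. In tissue punches, fewer cells of a type and less RNA per cell cannot be told apart. The choroid plexus sums did not overlap between the regions, and the astrocyte sums did. The part of these cells in the differences of *Hes1* and *Hes5* was not tested.

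**Figure D2:**
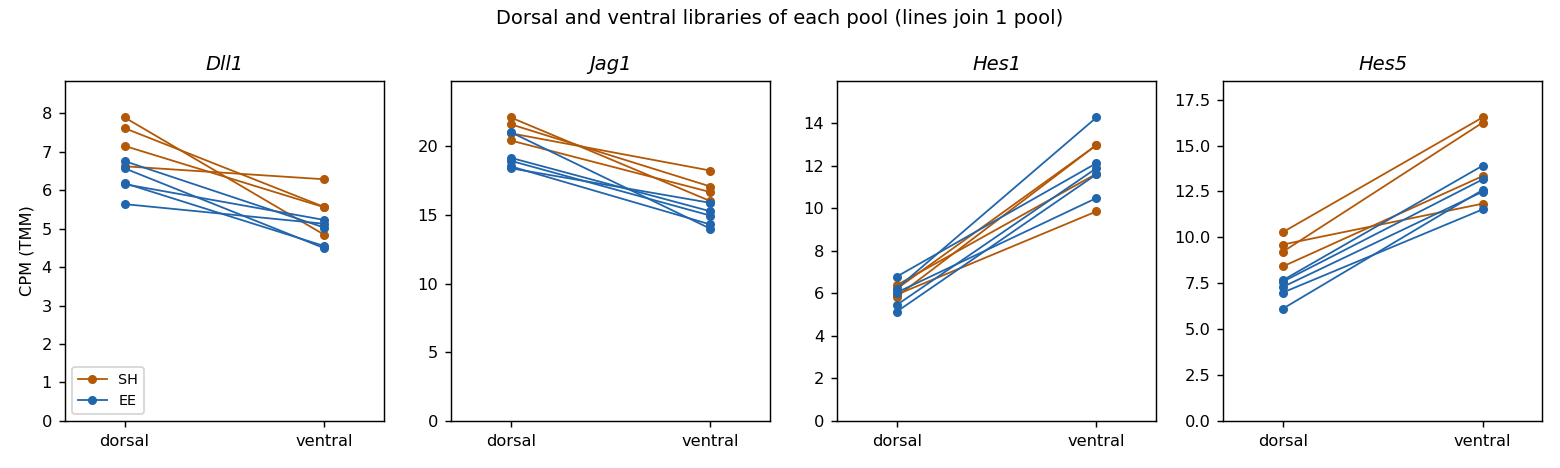
Expression of *Dll1*, *Jag1*, *Hes1* and *Hes5* in CPM after TMM normalization in the dorsal and ventral libraries of 9 pools (4 SH in brown, 5 EE in blue), with a line joining the 2 libraries of each pool. Every line falls from dorsal to ventral for the ligands *Dll1* and *Jag1*, and every line rises for the targets *Hes1* and *Hes5*.

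Of the ligands, *Jag1* was most clearly separated. It encodes a Jagged ligand expressed by stem and vascular cells. It had 22.1, 20.9, 20.4 and 21.6 CPM in dorsal SH and 19.2, 18.9, 21.0, 18.4 and 18.5 in dorsal EE, and 16.0, 18.2, 16.7 and 17.1 in ventral SH and 15.3, 14.9, 14.0, 15.9 and 14.3 in ventral EE. The lowest dorsal library, at 18.4 CPM, was above the highest ventral one, at 18.2 CPM, and the dorsal library was 1.15 to 1.50 times the ventral one of its pool. *Jag1* had a log2 fold change of 0.35 with an SE of 0.040 (edgeR adjusted p = 1.42e-07), 0.32 in SH and 0.37 in EE.

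*Dll1*, the Delta ligand that neural progenitors present to their neighbours, had 7.89, 7.61, 6.62 and 7.15 CPM in dorsal SH and 5.64, 6.75, 6.18, 6.57 and 6.15 in dorsal EE. Ventral values were 4.84, 5.56, 6.28 and 5.55 CPM in SH and 5.12, 5.03, 4.55, 4.49 and 5.22 in EE. Within each housing all dorsal libraries were above all ventral ones, while over both housings the ranges overlapped, since ventral SH replicate 4 was above 3 of the dorsal EE libraries. *Dll1* had a log2 fold change of 0.38 with an SE of 0.061 (edgeR adjusted p = 1.49e-05), and the dorsal library was the higher one in 9 of 9 pools. *Dll1* rested on 111 to 220 counts per library. *Jag2*, the other Jagged ligand, ranged from 18.6 to 20.9 CPM in dorsal and from 19.9 to 22.8 CPM in ventral libraries, with a log2 fold change of -0.04 (95% interval -0.11 to 0.03, edgeR adjusted p = 0.344).

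The receptors differed less. *Notch1* had 54.7, 58.9, 51.7 and 50.2 CPM in dorsal SH and 51.7, 57.1, 58.1, 48.9 and 45.3 in dorsal EE, and 43.7, 47.7, 42.8 and 45.2 in ventral SH and 45.9, 52.5, 47.3, 44.1 and 47.7 in ventral EE. All dorsal SH libraries were above all ventral SH libraries, the EE libraries overlapped, and the dorsal library was the higher one in 8 of 9 pools. Its log2 fold change was 0.20 with an SE of 0.048 over both housings (edgeR adjusted p = 0.00113). It was 0.26 in SH (adjusted p = 0.00502) and 0.14 in EE (adjusted p = 0.0863). With the pool as a block, the EE value was 0.13 and passed (edgeR adjusted p = 0.0240), as it did without EE replicate 5 (0.0252), and the difference between the SH and EE effects without the block had an unadjusted p of 0.197 in the edgeR interaction test.

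*Notch2*, the receptor with the most counts, ranged from 71.2 to 84.3 CPM in dorsal SH and 67.1 to 78.5 in dorsal EE, and from 65.4 to 76.8 in ventral SH and 64.9 to 72.9 in ventral EE. The groups overlapped, with the dorsal library higher in 8 of 9 pools. The log2 fold change was 0.12 with an SE of 0.043 (edgeR adjusted p = 0.0257), 0.17 in SH (adjusted p = 0.0400) and 0.06 in EE (adjusted p = 0.389). The call did not hold in all fits: the edgeR adjusted p was 0.0612 without SH replicate 2, 0.0838 without SH replicate 4, 0.0777 without EE replicate 1 and 0.0602 in a joint test of both housings with 2 degrees of freedom.

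*Notch3*, a receptor of vascular mural cells, ranged from 8.08 to 10.8 CPM in dorsal and 7.21 to 11.0 CPM in ventral libraries, and *Notch4*, a receptor of endothelial cells, from 6.02 to 8.42 and 6.22 to 7.84 CPM. Their log2 fold changes were 0.11 (95% interval -0.05 to 0.26, edgeR adjusted p = 0.225) and -0.04 (95% interval -0.17 to 0.09, adjusted p = 0.613). The summed expression of 12 endothelial markers was 292 to 343 CPM in dorsal and 288 to 355 CPM in ventral libraries, and 1 of them, *Cdh5*, was higher and 1, *Egfl7*, lower in dorsal DG. Of 11 mural cell markers, 1 was higher and 5 were lower in dorsal DG.

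**Figure D3:**
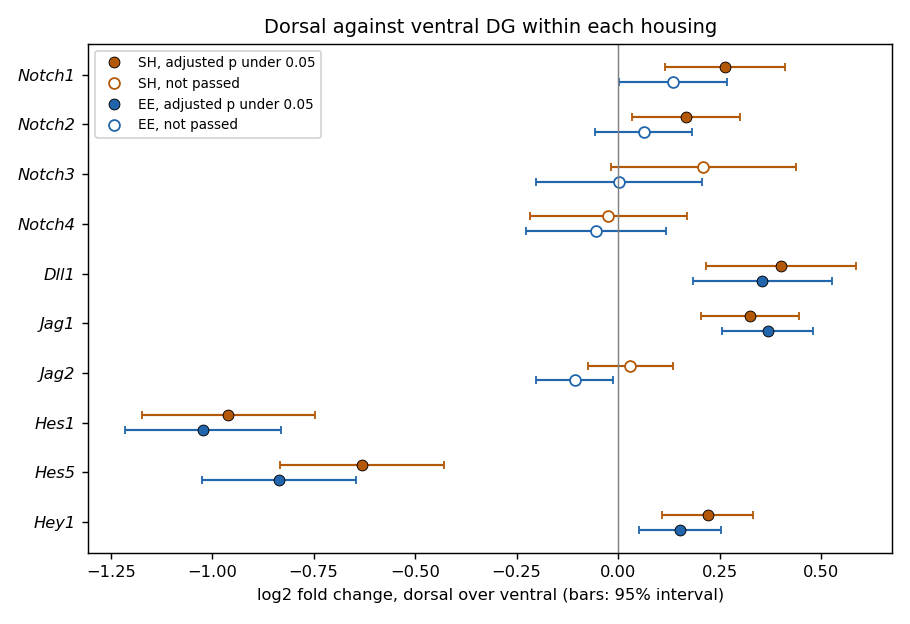
Log2 fold change of dorsal over ventral DG for each Notch gene, within SH (brown, 4 pools) and within EE (blue, 5 pools), with 95% intervals of the edgeR fit; filled points have an adjusted p under 0.05. *Hes1* and *Hes5* lie far to the left of 0 in both housings, and *Dll1*, *Jag1* and *Hey1* to the right in both, while *Notch1* and *Notch2* are filled in SH and open in EE.

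Within SH, 7 of the 10 genes passed (41.7% of all tested genes passed), and within EE 5 of 10 (46.5% of all). The EE set was *Dll1*, *Jag1*, *Hes1*, *Hes5* and *Hey1*. In alternative fits 6 to 7 passed within SH and 4 to 6 within EE: *Notch2* in SH and *Hey1* in EE lost their calls in some, and *Notch1* and *Jag2* in EE gained them in others. *Dll1*, *Jag1*, *Hes1* and *Hes5* passed within both housings in every fit. For *Hey1* in EE the edgeR adjusted p was 0.0529 without EE replicate 1 and 0.0543 without EE replicate 5. For *Jag2* in EE it was 0.0356 without EE replicate 2. For *Notch2* in SH it was 0.123 without SH replicate 2, 0.184 without SH replicate 4 and 0.0514 without EE replicate 1. For no member did the difference between dorsal and ventral DG change with housing at an adjusted p under 0.05, as described below.

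The second comparison was between EE and SH within each region. No Notch gene passed in dorsal or in ventral DG, where 0.716% and 0.246% of all tested genes passed (122 and 42 genes, edgeR). At an unadjusted p under 0.05, 4 of the 10 genes differed in dorsal DG (*Dll1*, *Jag1*, *Hes5* and *Hey1*, all with lower values in EE) and 3 in ventral DG (*Jag1* and *Hes5* with lower and *Jag2* with higher values in EE), against 1502 and 1292 of the 17040 genes. The log2 fold change (EE over SH) was below 0 for 9 of 10 members in dorsal DG, with a median of -0.09, and for 5 of 10 in ventral DG, with a median of 0.01. The medians of all tested genes were -0.0034 and -0.00018, and 8280 and 8508 of the 17040 genes had values above 0. The 10 values of a region come from the same libraries, and the direction of the members as a group was not tested. Both EE comparisons use separate libraries, but the dorsal and ventral libraries come from the same pools.

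*Hes5* in dorsal DG was nearest to the threshold. Its 5 dorsal EE libraries, at 6.11 to 7.66 CPM, were all below its 4 dorsal SH libraries, at 8.41 to 10.3 CPM, and the means were 7.13 ± 0.627 (SD, n = 5) and 9.38 ± 0.781 (n = 4). How many of all tested genes separate their libraries as fully was not counted, in this or any other comparison. The log2 fold change of *Hes5* was -0.39 with an SE of 0.099 (95% interval -0.60 to -0.19), and its edgeR adjusted p was 0.0691. With the replicate number as a block in the model it was -0.37, and the edgeR adjusted p was 0.0454. The adjusted p was 0.0221 with DESeq2, 0.0167 with the likelihood ratio test of edgeR, 0.0234 with no filter on low counts, 0.0213 with all 20 libraries and 0.0321 with dorsal libraries fitted alone. It was 0.0732 to 0.203 in the 9 edgeR fits that each left out a pool. *Hes5* also did not pass with RLE size factors, with the filter of TPM over 1 in at least 3 libraries, with unstranded counts or with expected counts. It thus passed in 6 of 19 alternative fits. *Hes5* is thus near the threshold, and the call depends on the fit. In dorsal DG, summed astrocyte markers were 7637 to 8986 CPM in SH and 7142 to 8768 CPM in EE, summed radial glia-like markers 208 to 242 and 205 to 239 CPM, and none of these 10 and 7 markers passed in EE against SH. At an unadjusted p under 0.05, 3 of the 7 radial glia-like and 1 of the 10 astrocyte markers differed (edgeR). Of all 17040 genes, 1502 did. The median log2 fold change was -0.07 for the radial glia-like and 0.02 for the astrocyte markers.

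*Hes5* in ventral DG had a mean of 14.5 ± 2.28 CPM (SD, n = 4) in SH and 12.7 ± 0.880 CPM (n = 5) in EE, with overlapping libraries and a log2 fold change of -0.19 (edgeR adjusted p = 0.646). The difference between the dorsal and ventral EE effects of *Hes5* was -0.20 on the log2 scale with a 95% interval of -0.48 to 0.07 and an unadjusted p of 0.142 (edgeR), so that a larger effect in dorsal DG was not shown.

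*Jag1* had lower values in EE in both regions. In ventral DG its EE libraries, at 14.0 to 15.9 CPM, were all below the SH libraries, at 16.0 to 18.2 CPM. Its log2 fold change there was -0.19 with an SE of 0.057 (edgeR adjusted p = 0.263). In dorsal DG the log2 fold change was -0.15 with an SE of 0.055 (adjusted p = 0.356), and EE replicate 3, at 21.0 CPM, lay within the SH range. *Jag2* in ventral DG had values of 20.5 to 22.8 CPM in EE, all above the 19.9 to 20.3 CPM in SH, a difference of 7.17% with an edgeR adjusted p of 0.652. In none of these did the difference pass once all tested genes were taken into account.

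*Dll1* had log2 fold changes (EE over SH) of -0.23 in dorsal and -0.18 in ventral DG, with edgeR adjusted p values of 0.336 and 0.657. *Hes1*, which differed most between the regions, had log2 fold changes of -0.04 (95% interval -0.26 to 0.18) in dorsal and 0.02 (-0.16 to 0.21) in ventral DG. For the 4 receptors these values were -0.11 to 0.09 (dorsal) and -0.0016 to 0.13 (ventral), and for *Hey1* they were -0.11 and -0.04. In the interaction of region and housing no member passed, and 0.00587% of all tested genes (1 gene) did. The smallest unadjusted p among the members was that of *Jag2*, 0.0552 (edgeR), and 553 of the 17040 genes had an unadjusted p under 0.05.

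**Figure D4:**
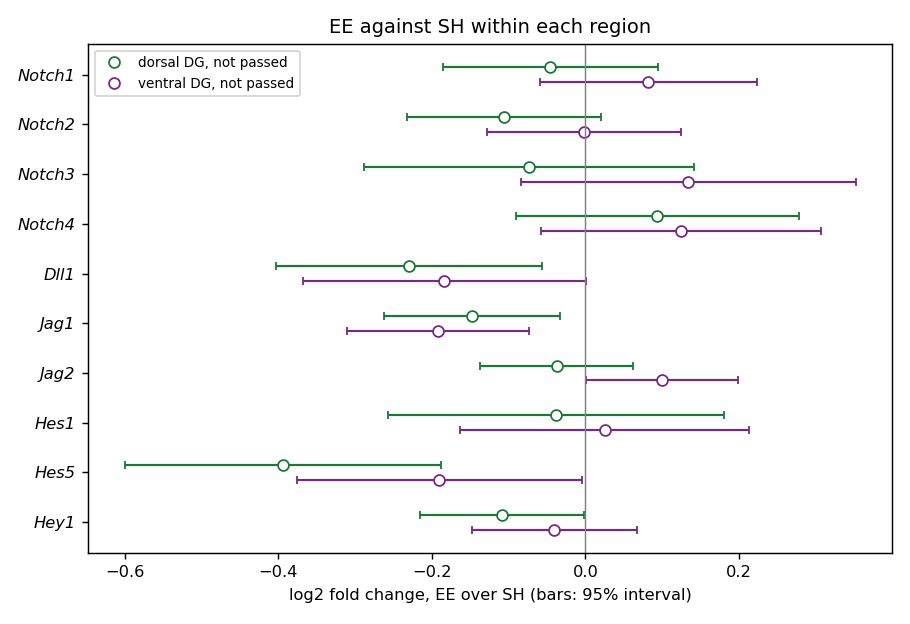
Log2 fold change of EE over SH for each Notch gene in dorsal DG (green) and ventral DG (purple), with 95% intervals of the edgeR fit (4 SH and 5 EE libraries per region); all points are open, since no gene had an adjusted p under 0.05. *Hes5* in dorsal DG, at -0.39, is the farthest from 0.

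The other genes of the pathway were taken from a list of 64 genes in 8 roles, of which 59 were tested; *Mfap5*, *Rbpjl*, *Hes2*, *Hes3* and *Helt* had too few counts. Between the regions 24 were higher and 18 lower in dorsal DG (edgeR adjusted p under 0.05), with a median absolute log2 fold change of 0.20. Of all tested genes 29% were higher and 29.3% lower, with a median absolute log2 fold change of 0.19, and the counts of each role below are to be read against these shares, since no role was tested as a group. No gene of the list passed in EE against SH in either region or in the interaction, and 4 in dorsal and 5 in ventral DG had an unadjusted p under 0.05 in EE against SH, beside 1502 and 1292 of all 17040 genes.

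Of 9 tested genes of the nuclear complex that Notch joins and its co-activators, 6 were higher and 1, *Kat2b*, lower in dorsal DG, and 2 did not pass. The Mastermind co-activators *Maml3*, *Maml2* and *Maml1* had log2 fold changes of 0.89, 0.55 and 0.31, the histone acetyltransferases *Crebbp* and *Ep300* 0.41 and 0.35, and the DNA-binding protein *Rbpj* 0.27. Mean expression of *Maml3* was 26.6 CPM in dorsal SH and 29.2 in dorsal EE, against 14.4 and 15.8 in ventral DG. Of 8 co-repressors, 5 were higher in dorsal DG, among them *Ncor1* and *Spen* with log2 fold changes of 0.29 and 0.28, and 1, *Ctbp2*, was lower, with -0.28. These co-factors serve many other transcription factors too.

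Of 6 genes for glycosylation and furin cleavage, which act while a receptor is made, 4 were lower and none higher in dorsal DG. They were *Pofut1* and *Poglut1*, which add sugars to Notch, and the Fringe enzymes *Lfng* and *Mfng*, which alter its response to ligands, with log2 fold changes of -0.11, -0.21, -0.24 and -0.42. Of 9 genes of ADAM proteases and gamma-secretase, the enzymes that cut the bound receptor, 3 were higher, among them *Adam10* and *Ncstn* with log2 fold changes of 0.14 and 0.11, and 3 were lower, *Aph1c*, *Aph1b* and *Psen2*, with -0.39, -0.35 and -0.15. Among genes for ligand endocytosis, the ubiquitin ligases *Mib1* and *Mib2* were higher (log2 fold changes of 0.11 and 0.14) and *Neurl1a* and *Neurl1b* lower (-0.34 and -0.32). *Aph1b* and *Aph1c* are near-identical copies, so fragments that fit both could be missing from the counts used here.

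Among other ligands, *Dlk1*, a non-canonical ligand, had the largest fold change of the list, -2.10 with an SE of 0.29 (edgeR adjusted p = 2.09e-06). Its mean was 0.157 and 0.199 CPM in dorsal SH and EE and 0.616 and 0.943 CPM in ventral SH and EE. At these levels the filter of more than 10 counts in at least 2 libraries could be met through the ventral libraries alone. *Dll3* and *Mfap2* were lower, with log2 fold changes of -0.50 and -0.44, and *Cntn1* was higher, with 0.16. Of 6 tested other Hes and Hey relatives, *Bhlhe41* and *Bhlhe40* were higher (log2 fold changes of 0.51 and 0.26) and *Hes7*, *Hey2* and *Heyl* lower (-0.82, -0.81 and -0.31). *Hey2* had 2.71 and 2.64 CPM in dorsal SH and EE and 4.73 and 4.72 CPM in ventral SH and EE. The group means of *Hes7* were only 0.123 to 0.386 CPM, the highest in ventral EE, through which the count filter could be met. Its SE was 0.35 (edgeR adjusted p = 0.0488), and within SH it did not pass (edgeR adjusted p = 0.404). Of 10 inhibitors and turnover genes, 5 were higher in dorsal DG (*Numb*, *Itch*, *Fbxw7*, *Dtx1* and *Dtx3*, log2 fold changes of 0.10 to 0.25), and *Nrarp*, a feedback inhibitor that Notch induces, was lower, with -0.22.

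**Figure D5:**
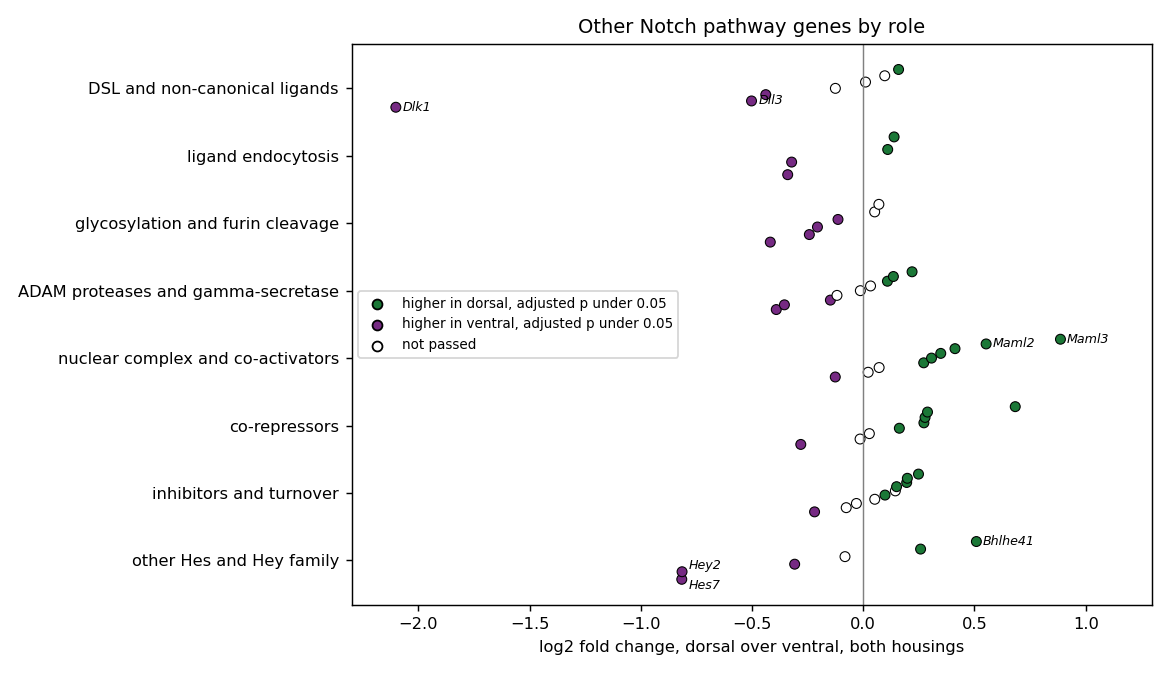
Log2 fold change of dorsal over ventral DG over both housings for the 59 tested other genes of the Notch pathway, 1 point per gene, in rows by role; green and purple points have an adjusted p under 0.05 and white points do not. Of the co-activator row 6 points are green and 1 purple, with *Maml3* at 0.89, and *Dlk1* at -2.10 is farthest to the left.

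Within groups, the members varied together to different degrees. Pearson correlations of log2 CPM, as deviations from the group means over the 18 libraries, were 0.41 to 0.68 among the 4 receptors, the highest between *Notch1* and *Notch3*. Between receptors and targets they ranged from -0.38 for *Notch4* and *Hey1* to 0.58 for *Notch4* and *Hes1*, with 0.45 for *Notch3* and *Hes1*, 0.35 for *Notch3* and *Hes5* and 0.01 for *Notch1* and *Hes1*. Of 12168 genes compared, the 3 most like *Notch1* were *Cdh22*, *Slc12a4* and *Ep400* (0.92, 0.90 and 0.88), and those most like *Hes5* were *Sephs2*, *Bri3* and *Chadl* (0.88, 0.85 and 0.84). The 3 most like *Jag1* were *Chrna1os*, *Sema6d* and *Tle4* (0.77, 0.76 and 0.75), and those most like *Hes1* were *Bcdin3d*, *Rps27a-ps2* and *Rbms1* (0.74, 0.73 and 0.71). These are descriptions over libraries that share pools and depth, and the highest of so many values is high by selection.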

How the data were processed

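Stranded total RNA libraries of dorsal and ventral DG were sequenced as read pairs. Per the labels, reads were trimmed with Trim Galore 0.4.0, aligned to mm10 with STAR 2.5.1b and quantified with RSEM 1.2.30. The counts deposited by the authors are whole fragments per gene, not normalized, given unstranded and for each strand. The column of the reverse strand, which is the strand of these libraries, was used. Rows of no gene (32.6 to 40.9% of all fragments) were left out of library sizes and tests. The authors deposited estimated counts (expected counts), in which fragments that fit several genes are shared out, and these were rounded for an alternative. TPM was deposited by the authors too, scaled for effective length. Since the top 4 genes of a library took 57.9 to 67.8% of its TPM, TPM was used only for levels within libraries and for filters, and comparisons used counts.

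Groups and replicate numbers were taken from the labels. A gene was tested where at least 2 libraries had more than 10 counts (17040 of 46480, 45968 with a symbol from Gencode). TMM normalization and the quasi-likelihood F test of edgeR 4.0.16 (R 4.3.3) were applied with the 4 group means in a single model over 18 libraries, with Benjamini-Hochberg adjustment over all genes tested. The region contrast is the mean of the SH and EE differences. SE are of the fitted log2 fold change. Levels are CPM after TMM normalization, per kb of mean effective length where genes are compared. DESeq2 1.42.0, the other alternatives of the closing section, and fits without each pool were run in the same way. The procedure was tested on simulated data. Python 3.11.15 with pandas 2.3.3, numpy 2.4.6, scipy 1.17.1 and matplotlib 3.10.9 was used for values and plots.

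All 10 members are named. Of the other pathway genes, those with the largest fold change in each direction were named, up to 5 each, and further ones to show what a role holds, after their values were seen. Not all genes that fall under this rule are reported here. The 3 genes of highest correlation with a member were listed among genes that at least 3 libraries had at a TPM over 1. The members, the pathway list and the marker lists were chosen with earlier results of these data known.

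Dorsal and ventral samples are from the same mice, by the study's figure legend. The sample titles do not state that equal replicate numbers mark the same mice, and this was assumed for the pools. Deviations from the group means of the dorsal and ventral libraries of a pool correlated at -0.13 to 0.31 (9 pairs). SH and EE libraries of the same number correlated at 0.11 to 0.28 in all 8 pairs, and the pool (regions, interaction) or the number (EE against SH) was therefore used as a block in an alternative fit. The samples of bisulfite and TAB sequencing were not used here. Promoters are RefSeq sequences of GRCm38.p6.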

Additional observations from a re-analysis of the deposited data

Results flagged for a closer look

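In 3 of 40 groups of 4 or 5 libraries (10 members in 4 groups), the highest or lowest library was farther from the others than Dixon's 95% limit, and chance gives about 1 in 20 groups. *Notch4* in dorsal EE replicate 3 was 8.42 CPM, against 6.34 to 6.69 CPM in the other 4 libraries. *Jag1* in the same library was 21.0 CPM, against 18.4 to 19.2 CPM, at the limit itself. *Jag2* in dorsal EE replicate 5 was 18.6 CPM, against 20.1 to 20.6 CPM.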

How the results depend on the processing

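Each result was recomputed in up to 19 alternative fits (RLE size factors, DESeq2, the likelihood ratio test of edgeR, no filter on low counts, TPM over 1 in at least 3 libraries, all 20 libraries, unstranded counts, expected counts, the replicate block, separate fits, the joint region test and 9 fits without a pool each). Of 564 member fold changes so recomputed, 544 kept their direction and their side of the threshold. *Hes1*, *Hes5*, *Dll1*, *Jag1*, *Notch1* and *Hey1* passed between the regions in all 19 fits, and *Notch2* in 15 of 19. The exceptions for *Notch2* were the joint test (adjusted p = 0.0602, edgeR) and log2 fold changes of 0.11, 0.10 and 0.10 without SH replicate 2, SH replicate 4 and EE replicate 1. The number of members that passed in EE against SH in dorsal DG was 1 (*Hes5*) instead of 0 with DESeq2, the likelihood ratio test, no filter, all 20 libraries, separate fits and the replicate block. With the replicate block, 243 instead of 122 of all genes passed in dorsal DG, 105 instead of 42 in ventral DG and 2 instead of 1 in the interaction, and *Notch1* passed between the regions within EE (adjusted p = 0.0240, edgeR), and the block changed no other call of a member. Within SH 6 to 7 and within EE 4 to 6 members passed over all fits, instead of 7 and 5. In dorsal DG the count of all genes was 188 with DESeq2 and 225 with the likelihood ratio test, and in ventral DG 85 and 95, with 80 without a filter, 27 with the TPM filter and 25 with separate fits. The interaction gave 0 genes with the TPM filter. Without a pool each, the counts were 74 to 130 in dorsal DG, 18 to 50 in ventral DG and 0 in the interaction, each least without SH replicate 4 where not 0, and in dorsal DG 80, 79 and 77 without SH replicates 1, 2 and 5, in ventral DG 24 and 26 without SH replicate 2 and EE replicate 3. Direction turned only for EE effects near 0, none of which passed. In ventral DG, *Notch2* was 0.000733 with the TPM filter and -0.035 to 0.044 without a pool each (above 0 without SH replicates 2 and 5 and EE replicates 1 and 4), and *Hes1* was -0.021 with the replicate block and -0.053 to 0.072 without a pool each (below 0 without SH replicate 4 and EE replicate 3). In dorsal DG, *Hes1* was -0.092 to 0.0083 (above 0 without EE replicate 2) and *Notch1* -0.087 to 0.0045 (above 0 without EE replicate 5). The causes were not tested. Counts of 111 to 220 per library for *Dll1* and 124 to 364 for *Hes1* limit the precision of their values.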

Other observations

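SH replicate 3, the pool left out of all groups for its *Xist* counts, had the following values in CPM after TMM normalization over all 20 libraries. *Hes1* was 6.37 CPM in its dorsal and 12.7 CPM in its ventral library, and *Hes5* was 10.5 and 16.3 CPM, so that both targets were higher in ventral DG in this pool as well. The ligand *Jag1* was at 21.3 CPM (dorsal) and 15.6 CPM (ventral). Its ventral value lay within the range of the ventral EE libraries (14.0 to 15.9 CPM, normalized over 18 libraries). *Jag2* was 22.6 and 23.6 CPM, the ventral value above all ventral EE libraries (20.5 to 22.8 CPM, normalized over 18 libraries). With this pool, the SH and EE libraries of ventral DG would therefore overlap for both Jagged ligands, while its dorsal *Hes5* value was above the dorsal EE libraries (6.11 to 7.66 CPM, normalized over 18 libraries).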
